A study of Homo sapiens with 4 samples.

Results

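Mitochondrial ribosomal proteins were examined as the protein-coding genes whose symbol is MRPL or MRPS followed by digits and at most a single letter in GENCODE 29. The rule found 78 of the 28274 genes with a value, 49 named for the large subunit (MRPL) and 29 for the small subunit (MRPS). Transcripts were sequenced in 4 libraries made from a human cell line labelled J-gammal, whose parent line the labels do not give. In 2 of them, titled sh-FYB1, the cells are described as having a knockdown of FYB1, an adaptor of T cell receptor and integrin signalling. The other 2, titled NC, are described as untreated controls, with no genotype. The labels give neither the construct behind each title nor whether the cells were 1 clone, and nothing says that the 2 libraries of a group are separate cultures. The p-values thus rest on how far these libraries differ, which may be technical.

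The mitochondrial ribosome translates the few messenger RNAs that the mitochondrial genome encodes, all for membrane subunits of the respiratory chain and of ATP synthase. Its ribosomal RNAs are transcribed inside the organelle, while every one of its proteins is encoded in the nucleus, made in the cytosol and imported. Many of these proteins descend from bacterial ribosomal proteins, and others have no bacterial counterpart and were added during the evolution of mitochondria. Symbols do not always match the place in the structure. MRPS18A and MRPS30 are named for the small subunit but sit in the large one, and MRPS36 is now regarded as a component of the 2-oxoglutarate dehydrogenase complex rather than a ribosomal protein.

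Levels are given in FPKM, in which reads are scaled by the merged exon length of the gene and by a library total that the authors set. FYB1 stood at 6.18 and 4.53 FPKM in knockdown libraries 1 and 2 and at 17.6 and 20.1 FPKM in controls 1 and 2 (knockdown mean at 28.5% of that in controls, limma-trend adjusted p = 0.0398). All 8 T cell markers examined, among them CD3E and LCK, lay above 10 FPKM in every library, and all 5 myeloid markers lay under 1 FPKM. Summed over the 8, the T cell markers came to 708.7 and 907.8 FPKM in knockdown libraries 1 and 2 and to 1108 and 1029 FPKM in controls 1 and 2. Of 4 B cell markers 3 lay under 1 FPKM in every library, and the other one, CD79A, stood at 11.1 and 15.8 FPKM in the knockdown libraries, against 24.5 and 21.2 FPKM in the controls. Of 4 epithelial and stromal markers 3 lay under 1 FPKM, and VIM stood at 132.4 and 134.6 FPKM in the knockdown libraries, against 118.0 and 103.7 FPKM in the controls. Of 3 NK cell markers 2 lay under 1 FPKM in every library. The other, NKG7, stood at 9.46 and 10.4 FPKM in the knockdown libraries, against 12.5 and 10.1 FPKM in the controls. The part of these genes in the results was not tested. The share of reads from the mitochondrial genome was 4.92% and 5.14% in the knockdown libraries and 4.09% and 4.03% in the controls. The libraries held 16693113 to 20251864 reads as recovered from the values. The pair of libraries in each group differed from each other in the genes described here. The median of control 1 minus control 2 over the members was 0.14 on the log2(FPKM + 1) scale, against 0.02 over all 13172 genes tested, those whose mean over the libraries reached 1 FPKM.

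The start regions of some of these genes hold words read by factors known to drive nuclear genes of mitochondria. Such factors include ETS proteins such as GABPA, searched as CCGGAAG, and NRF1 and YY1, searched as the words in capitals in the lines of MRPL17 and MRPS18A below. RefSeq start windows on GRCh38.p14, from 250 bases before to 50 bases after the start, were available for 69 of the 78 members. The windows below, of 30 bases each, belong to 5 members that limma-voom called lower and to 3 members with almost equal values in both groups, with the word in capitals and each sequence written on the strand that holds the word as searched, which is the plus strand for MRPL16 and the minus strand for the other 7. The NRF1 word reads the same on both strands, and that of MRPL17 is given on the strand of the gene.
MRPL43, ETS core, chr10:100987497-100987526: tcgtcccggaaCCGGAAGcctcgaggttta
MRPS26, ETS core, chr20:3046004-3046033: cgccaccgtgccCCGGAAGcggcgcgggga
MRPL52, ETS core, chr14:22829871-22829900: tagccggggtagCCGGAAGtaggcgtggcc
MRPL17, NRF1, chr11:6683402-6683431: aggctctgatGCGCATGCGCaaacacgttc
MRPS18A, YY1, chr6:43687762-43687791: aggtttttgAAGATGGCGGCcctcaaggct
MRPL16, ETS core, chr11:59810766-59810795: cgctcagtggggCCGGAAGttgtgttcact
MRPS31, ETS core, chr13:40771204-40771233: aaggcgccaggCCGGAAGcggaagagaggg
MRPL50, YY1, chr9:101398575-101398604: atctcatcgAAGATGGCGGCgcgatctgtg
The genes of MRPS26 and MRPL52 lie on the plus strand and those of the other 6 on the minus strand. Searched on both strands, CCGGAAG was found in the windows of 42% of the 69 members and of 21.1% of the 8477 coding genes tested that had a window. The YY1 word was found in 14.5% of the members and 2.31% of the coding genes, and the NRF1 word in 1.45% of the members (MRPL17 alone) and 2.57% of the coding genes. No word contains another. The median log2 fold change was -0.29 in members with CCGGAAG and -0.32 in members without it. For the YY1 word the medians were -0.19 with it and -0.31 without it. These matches are a description of letters, and no test was made.

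Transcripts of mitochondrial ribosomal proteins were mostly less abundant in the knockdown libraries. Of the 77 members with a mean of at least 1 FPKM, 69 had a lower log2 fold change (89.6%), against 54.3% of all genes tested. The median log2 fold change over the members, knockdown minus control on log2(FPKM + 1), was -0.30, with an interquartile range of -0.45 to -0.13, and the median of all genes tested was -0.03. Both knockdown libraries lay below both controls for 52 members (67.5%), and the background for that pattern was 34.6% of all genes. MRPL1 alone lay above both controls in both knockdown libraries, where the background was 26% of all genes, and for 24 members the groups overlapped.

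No single member passed the main test. Limma-trend on log2(FPKM + 1), with Benjamini-Hochberg adjustment over all 13172 genes and a call at an adjusted p under 0.05, called 0 of the 77, against a background of 0.205% of all genes. At an unadjusted p under 0.05, 28 members were lower and 1 was higher, and the backgrounds were 14.9% and 8.51%. The lowest adjusted p of a member was 0.0588, for MRPL43. Limma-voom on the whole reads recovered from the values, with the same adjustment, called 14 members (18.2%), all lower, against a background of 7.74% of all genes called in either direction, 5.8% lower and 1.94% higher. At an unadjusted p under 0.05 limma-voom gave 40 members, where the background was 28.4%. Of these 14 calls, 9 were in the large and 5 in the small subunit.

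The number of calls by limma-voom changed with the libraries used and with the library totals, and the calls over all 13172 genes changed with it, from 1019 with all 4 libraries. Without knockdown library 1 limma-voom called 2 members, MRPL43 and MRPL17, and 102 genes in all. Without control 1 it called 3, MRPS26 besides that pair, and 136 genes in all. The same pair was called among 461 genes when library totals were taken as sums of the recovered reads. Without control 2 it called 8 members and 496 genes in all, and without knockdown library 2 it called 47 members and 3877 genes in all, which is 29.4% of the genes. With sums of the recovered reads as totals, the limma-trend median of all genes moved from -0.03 to 0.08. That of the members moved alongside, from -0.30 to -0.17, and 59 of the 77 members were lower. Wherever a member is said below to have fallen, the word means a call by limma-voom with all 4 libraries.

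**Figure D1:**
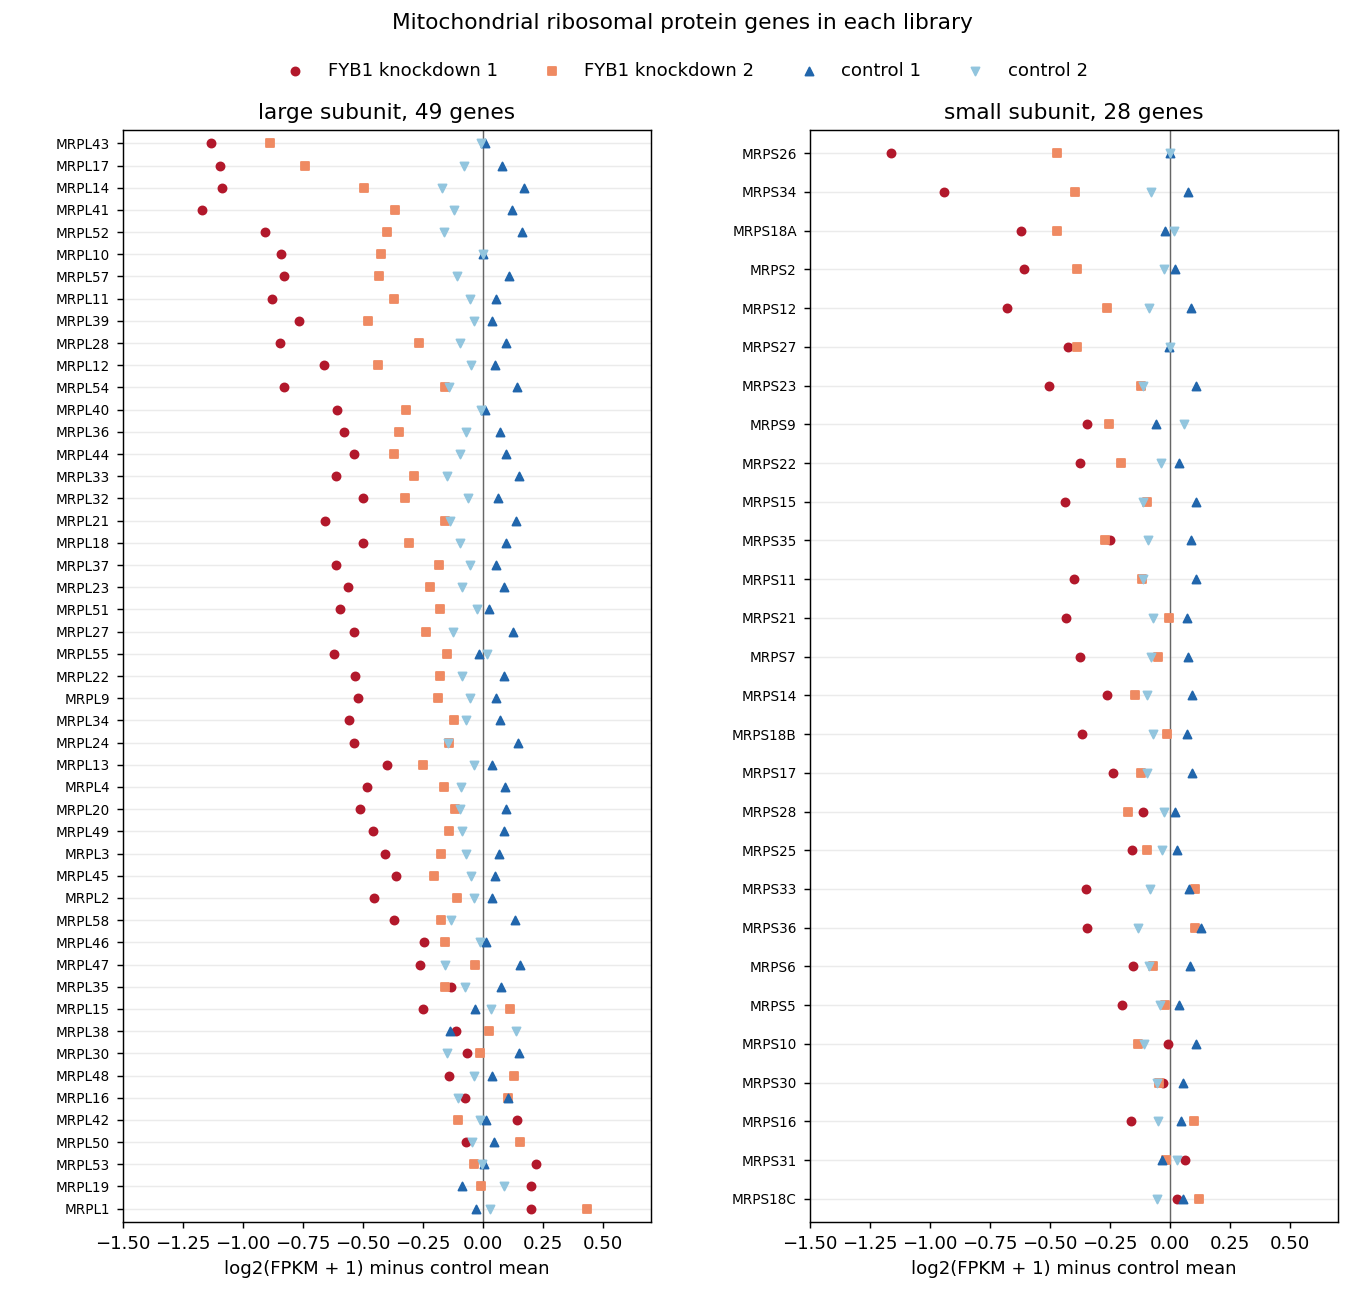
Each row is a member, ordered by log2 fold change within the large (left) and small (right) subunit, and each point a library, plotted as log2(FPKM + 1) minus the mean of the controls of that gene. Knockdown library 1 is the lowest point in 63 of the 77 rows, and knockdown library 2 mostly lies between it and the controls.

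The size of the difference was unequal between the knockdown libraries. Relative to the control mean, the median of the members lay at -0.44 in the first knockdown library and at -0.16 in the second, with control 1 at 0.07 and control 2 at -0.07. Knockdown library 1 was the lowest of the 4 for 63 members (81.8%), and it was the lowest for 42.9% of all genes tested. Summed over all 78 members, the levels came to 1253 and 1598 FPKM in knockdown libraries 1 and 2 and to 1983 and 1791 FPKM in controls 1 and 2. Those sums are 66.4% and 84.7% of the control mean, with the controls at 105.1% and 94.9%. The authors' totals, by which FPKM divides, lay above the recovered reads in the knockdown libraries and below them in the controls. They were 18436617 against 16693113 reads in knockdown library 1 and 20480491 against 20251864 in library 2. In controls 1 and 2 they were 16648943 against 17597678 and 16789004 against 17216663. With sums of reads as totals the median over the members was -0.17 and that of all genes 0.08. The part of the totals here was not tested. In RNA from a whole culture, fewer cells that express a gene and less RNA per cell cannot be told apart.

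MRPL43, a large subunit protein with no bacterial counterpart, had the lowest fold change of all members. It stood at 9.58 and 11.5 FPKM in knockdown libraries 1 and 2, against 22.4 and 22.1 FPKM in controls 1 and 2. The groups were far apart, and expression in the knockdown averaged 47.6% of that in controls. By limma-trend the log2 fold change was -1.01 ± 0.12 (SE, n = 2 each, adjusted p = 0.0588), and by limma-voom it was -1.08 ± 0.13 (adjusted p = 0.00266). The gene (chromosome 10, 100969458 to 100987515, minus strand, hg38) shares 36.9% of its exon bases with SEMA4G and TWNK on the opposite strand. TWNK, the helicase of mitochondrial DNA replication, stood at 4.87 and 5.85 FPKM in the knockdown libraries, against 7.43 and 6.67 FPKM in the controls. Because no source used here states whether strand was used in counting, part of the reads of MRPL43 cannot be assigned with certainty.

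MRPL17, a protein with a bacterial counterpart that lies near the exit of the peptide tunnel, is encoded on chromosome 11 (6680782 to 6683401, minus strand, hg38) and shares no exon base with another annotated gene. It stood at 17.8 and 23.0 FPKM in knockdown libraries 1 and 2, against 41.4 and 37.0 FPKM in controls 1 and 2. Both knockdown libraries were well under both controls, at 52.0% of the level in controls on average. Limma-trend gave a log2 fold change of -0.92 ± 0.15 (SE, n = 2 each) and an adjusted p of 0.1, and the adjusted p of limma-voom was 0.00689. It and MRPL43 were the members whose limma-voom call held without any 1 library.

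The other large subunit members that fell had smaller differences between the groups. MRPL14, which lies at the interface of the subunits and binds an assembly factor that keeps them apart, stood at 29.6 and 45.2 FPKM in knockdown libraries 1 and 2, against 72.3 and 56.8 FPKM in controls 1 and 2 (log2 fold change -0.79 ± 0.23, limma-voom adjusted p = 0.0321). MRPL41, without a bacterial counterpart, stood at 31.9 and 56.6 FPKM in the knockdown libraries, against 79.7 and 67.1 FPKM in the controls (log2 fold change -0.77 ± 0.27, limma-voom adjusted p = 0.049). In both genes knockdown library 2 lay closer to control 2 than to knockdown library 1. MRPL52 averaged 17.7 ± 4.59 FPKM in the knockdown libraries and 28.1 ± 4.64 FPKM in the controls (SD, n = 2 each). MRPL57 averaged 26.0 ± 5.21 FPKM in the knockdown libraries and 40.5 ± 4.35 FPKM in the controls, and MRPL39 averaged 25.7 ± 3.73 FPKM and 39.8 ± 1.47 FPKM in the same order. All of these 5 were called by limma-voom, and the lowest of their limma-trend adjusted p-values was 0.12, for MRPL39. None overlapped between the groups, which the choice by limma-voom favours, and 34.6% of all genes lay lower without overlap.

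The stalk of the large subunit, which recruits translation factors, was represented by 5 genes. MRPL10, the protein at its base that carries MRPL12, stood at 19.6 and 26.4 FPKM in knockdown libraries 1 and 2, against 35.9 and 35.8 FPKM in controls 1 and 2, and fell (log2 fold change -0.63 ± 0.16, limma-voom adjusted p = 0.0297). MRPL11, the other protein of the base, fell too, with 15.2 and 22.02 FPKM in the knockdown libraries, against 29.9 and 27.7 FPKM in the controls (limma-voom adjusted p = 0.0383). For these genes the first knockdown library was again the lower one. MRPL12, which also binds the mitochondrial RNA polymerase, averaged 10.7 ± 1.29 FPKM in the knockdown libraries and 16.1 ± 0.84 FPKM in the controls and was not called (limma-voom adjusted p = 0.0542), and it shares 68.2% of its exon bases with another annotated gene. MRPL54 had a log2 fold change of -0.49 ± 0.24 and MRPL53 one of 0.09 ± 0.16, neither called, and MRPL53 shares 45.2% of its exon bases with CCDC142. The stalk median was -0.55 over 5 genes, and the list was chosen with earlier results of these data known.

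In the small subunit, MRPS26 and MRPS34, both without a bacterial counterpart, were lowest. MRPS26 (chromosome 20, 3045945 to 3048254, plus strand, hg38) stood at 33.4 and 54.5 FPKM in knockdown libraries 1 and 2, against 75.8 and 75.7 FPKM in controls 1 and 2 (log2 fold change -0.81 ± 0.23, limma-voom adjusted p = 0.0303). MRPS34, the most abundant of all members per exon length, stood at 58.5 and 85.9 FPKM in the knockdown libraries, against 119.5 and 107.3 FPKM in the controls (log2 fold change -0.67 ± 0.21, limma-voom adjusted p = 0.0357). The controls of MRPS26 were almost equal while its knockdown libraries differed widely. MRPS2, a counterpart of a bacterial protein, averaged 17.8 ± 2.03 FPKM in the knockdown libraries and 25.4 ± 0.56 FPKM in the controls and fell. MRPS27, a pentatricopeptide repeat protein, fell by less and more evenly, with 8.26 and 8.50 FPKM in the knockdown libraries, against 11.4 FPKM in each control (log2 fold change -0.40 ± 0.09, limma-voom adjusted p = 0.0459).

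MRPS18A belongs to a family of 3 paralogs that occupy different places in the ribosome. MRPS18A, in the large subunit, stood at 14.1 and 15.8 FPKM in knockdown libraries 1 and 2, against 21.9 and 22.5 FPKM in controls 1 and 2, and fell (log2 fold change -0.54 ± 0.11, limma-voom adjusted p = 0.0363). It shares 47% of its exon bases with RSPH9 on the opposite strand, and RSPH9 stood under 1 FPKM in all 4 libraries. MRPS18B, a small subunit protein, averaged 36.3 ± 6.37 FPKM in the knockdown libraries and 41.2 ± 2.91 FPKM in the controls, with overlapping groups. MRPS18C, the closest to the bacterial protein, averaged 3.76 ± 0.21 FPKM in the knockdown libraries and 3.52 ± 0.24 FPKM in the controls, again with overlap. Neither MRPS18B nor MRPS18C was called (limma-voom adjusted p = 0.4 and 0.703).

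**Figure D2:**
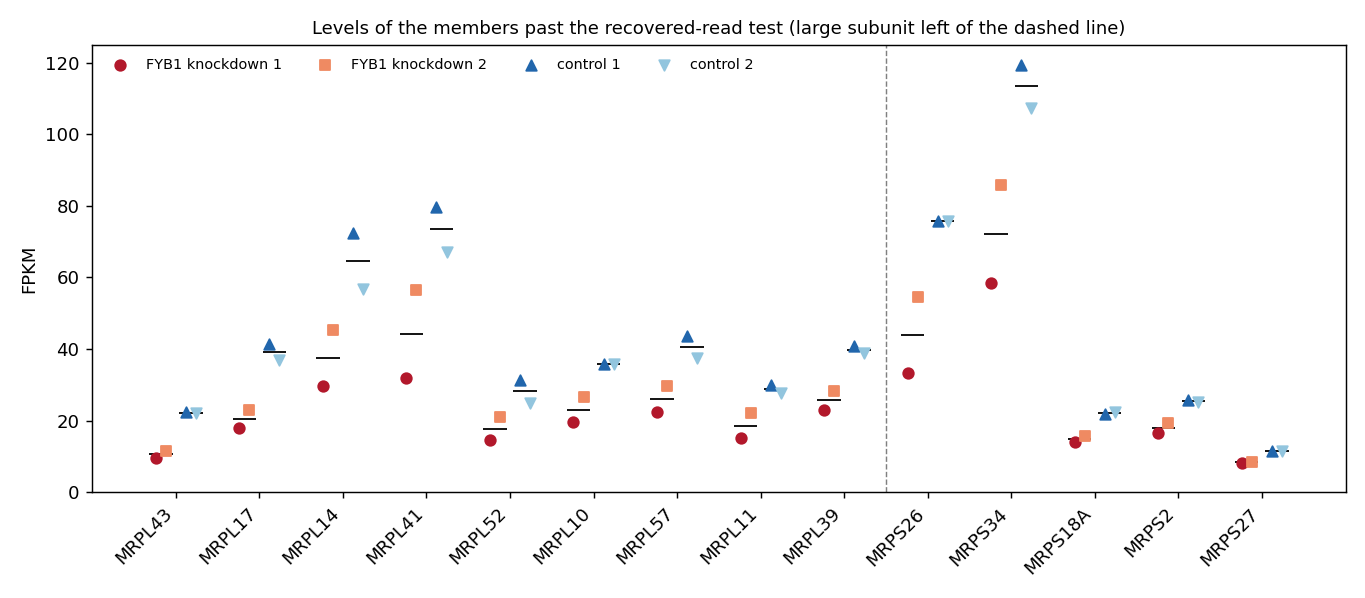
FPKM of the 14 members called by limma-voom in each library, with a bar for the mean of the 2 libraries of a group and the large subunit on the left. In all 14 both knockdown libraries lie below both controls, a pattern that the choice by this test favours and that 34.6% of all genes tested show. Knockdown library 1 is the lower of the pair in all 14, in 68 of the 77 members and in 7640 of the 13172 genes tested.

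Several members had nearly equal values in both groups. MRPL16, next to the peptidyl transferase centre, averaged 50.1 ± 4.52 FPKM in the knockdown libraries and 49.6 ± 5.12 FPKM in the controls (SD, n = 2 each). MRPS16, among the 3 most abundant of the small subunit, averaged 41.7 ± 5.42 FPKM in the knockdown libraries and 42.5 ± 2.1 FPKM in the controls. MRPL48, of the central protuberance, averaged 5.64 ± 0.87 FPKM in the knockdown libraries and 5.64 ± 0.26 FPKM in the controls. In these 3 genes the groups differed by less than the spread between libraries of a group. MRPS31, MRPS30, MRPL30, MRPL50 and MRPL19 had log2 fold changes between -0.04 and 0.09, none called and all with overlapping groups. The sign of each of these 8 fold changes turned under at least 1 alternative. MRPL37, one of the 3 most abundant large subunit members, averaged 50.4 ± 10.7 FPKM in the knockdown libraries and 66.0 ± 3.63 FPKM in the controls, and it was not called (limma-voom adjusted p = 0.106).

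MRPL1, a protein of the stalk at the site where transfer RNA leaves the ribosome, was the member with the highest fold change. It stood at 6.81 and 8.19 FPKM in knockdown libraries 1 and 2, against 5.66 and 5.95 FPKM in controls 1 and 2. Both knockdown libraries were above both controls, with the second the higher of the pair. The log2 fold change was 0.32 ± 0.11 and was not called (adjusted p = 0.185 by limma-trend and 0.188 by limma-voom).

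MRPS24 was the only member under the filter on low values, with 10 and 6 reads in knockdown libraries 1 and 2 and 5 and 0 reads in controls 1 and 2. Its exons overlap those of URGCP-MRPS24, an annotated readthrough transcript, on the same strand, over 23.2% of their length. The lowest member tested was MRPL46, of the central protuberance, at 1.23 ± 0.10 FPKM in the knockdown libraries and 1.57 ± 0.03 FPKM in the controls. FPKM here divides by the union of all annotated exons, so a gene with a long union has a low value for its reads. MRPL42, with 16393 bases of merged exon, had 1596 reads in knockdown library 1 and 1295 reads in control 1 but only 5.28 and 4.74 FPKM. In all, 41 of the 78 members share at least 1 exon base with another gene, 14 share 20% or more, and 34 have pseudogenes named after them. The median fold change was -0.30 in the 64 tested members with less overlap and -0.32 in the 13 with more.

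The large and small subunits were lower by unequal amounts. The median log2 fold change was -0.35 over 49 large subunit genes, of which 43 were lower, and -0.21 over 28 small subunit genes, of which 26 were lower. Both knockdown libraries lay below both controls in 37 large subunit genes (75.5%) and in 15 small subunit genes (53.6%). Limma-voom called 18.4% of the large and 17.9% of the small subunit genes. The difference between the medians was -0.15, and it was -0.062 without knockdown library 1, -0.068 when the libraries were quantile normalized and -0.077 after a correction for exon length and GC content. With MRPS18A and MRPS30 moved to the large subunit, MRPS36 left out and DAP3, CHCHD1, AURKAIP1, PTCD3 and GADD45GIP1 added by their place in the structure, the difference was again -0.15. No test of this difference was made, since genes are not replicates.

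The ratio of summed levels gave the same comparison on the FPKM scale. The large subunit summed to 824.5 and 1064 FPKM in knockdown libraries 1 and 2 and to 1341 and 1199 FPKM in controls 1 and 2. The small subunit summed to 429 and 534 FPKM in the knockdown libraries and to 641.6 and 592 FPKM in the controls. The large to small ratio was therefore 1.92 and 1.99 in the knockdown libraries and 2.09 and 2.03 in the controls. The ranges did not overlap, but the gap between the groups was smaller than the spread within either of them.

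Genes with a bacterial counterpart and genes without one were lower in each subunit. Among MRPL and MRPS genes placed by structure, with the 5 proteins under other symbols left out, the large subunit had a median log2 fold change of -0.35 over 30 genes with a counterpart and -0.39 over 21 genes without one. In the small subunit so placed it was -0.20 over 15 tested genes with a counterpart and -0.27 over 10 without one. Limma-voom called 4 and 6 of the large subunit genes and 1 and 3 of the small subunit genes lower in the same order. The background was 5.8% of all genes tested. In this split MRPS18A and MRPS18B were counted among genes without a counterpart, although their paralog MRPS18C was counted among those with one. MRPS18A is 1 of the 6 calls, so these counts depend on that placement. Around the peptide exit tunnel all 7 genes had lower values (median -0.35), among them MRPL45, which attaches the ribosome to the inner membrane, at 32.0 ± 2.52 FPKM in the knockdown libraries and 39.2 ± 1.97 FPKM in the controls. In the central protuberance all 6 had values below 0 (median -0.24), with MRPL48 at -0.01 and MRPL38 at -0.04. Both of these turned positive when library totals were sums of reads, at 0.11 for MRPL48 and 0.05 for MRPL38, and with length and GC content corrected, at 0.03 for MRPL48 and 0.15 for MRPL38. In this structure no gene was called, including MRPL58, a peptidyl-tRNA hydrolase that became part of the ribosome.

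Exon length and base composition moved with the fold change in these libraries. Across the 77 members the Spearman correlation of the log2 fold change was 0.345 with merged exon length and -0.583 with GC content. Across 10570 coding genes the correlation with length was 0.448, and across the 10564 of them with a GC value the correlation with GC content was -0.342. With mean FPKM it was -0.499 across the members and -0.374 across the 10570 coding genes. Genes within a library share its depth and composition, so these are descriptions. The members are short, with a median of 2539 bases against 5082 for coding genes tested, and 60 of the 77 were among the coding genes at or under 3835 bases, the shortest of 3 equal classes. In that class the median was -0.39 over 42 large subunit genes, -0.21 over 18 small subunit genes and -0.21 over all 3524 coding genes. Of those 3524 genes 77.0% had a lower fold change, against 55 of the 60 members in the class. Both knockdown libraries lay below both controls in 1927 of the 3524, in 33 of the 42 large and in 10 of the 18 small subunit genes. Limma-voom called 444 of the 3524 lower, and 13 of the 60 members. After a smooth trend on length and GC content was removed in each library, the medians were -0.21 for the large subunit, -0.14 for the small subunit and -0.02 for all coding genes tested. The corrected fold changes of the members still correlated at -0.262 with GC content and -0.293 with mean FPKM, and at 0.093 with exon length. The part of length and composition in the result was not tested beyond that correction.

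**Figure D3:**
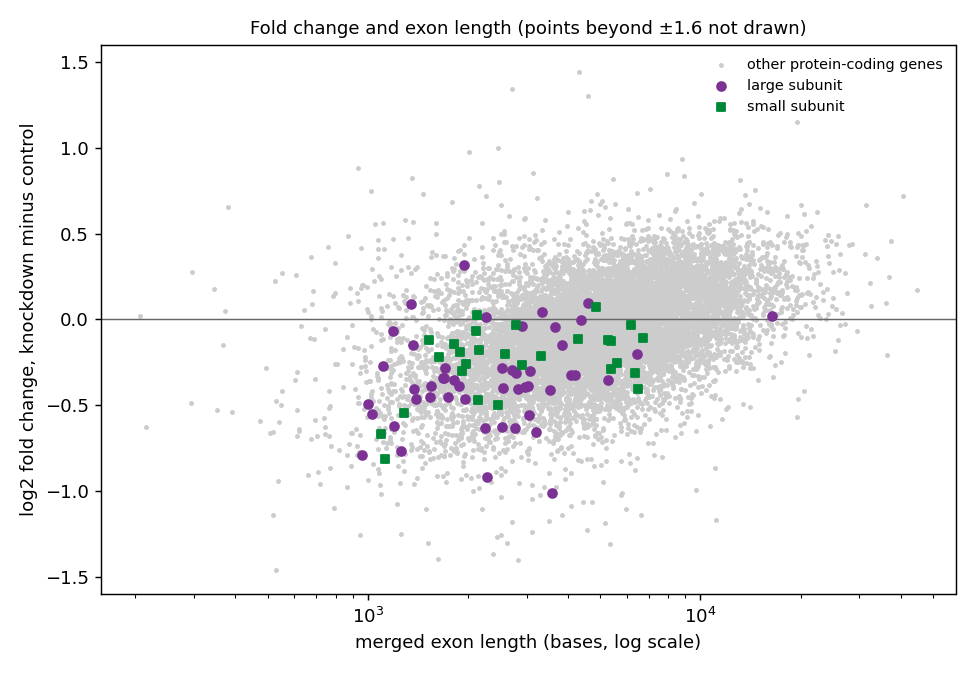
Log2 fold change, knockdown minus control, against merged exon length on a log scale for coding genes tested, with large subunit genes as circles and small subunit genes as squares. Short genes lie lower as a whole, and most members sit at the short end, with the large subunit median at -0.35 and the small at -0.21.

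Other proteins of mitochondrial translation, from lists chosen with earlier results known, gave mixed values. Of 5 mitoribosome proteins under other symbols 4 had lower values and 1 fell by limma-voom, namely GADD45GIP1, a large subunit protein, at 46.2 and 69.9 FPKM in knockdown libraries 1 and 2, against 104.2 and 89.0 FPKM in controls 1 and 2 (adjusted p = 0.031). Of 12 translation factors 7 had lower values (median -0.02), and limma-voom called 1 in each direction. The backgrounds were 5.8% of all genes called lower and 1.94% called higher. TUFM, the mitochondrial elongation factor that delivers transfer RNA, fell, with 76.8 and 99.3 FPKM in the knockdown libraries, against 134.4 and 127.4 FPKM in the controls (limma-voom adjusted p = 0.0348). GUF1, a homologue of the bacterial elongation factor LepA, rose, with 9.04 and 7.78 FPKM in the knockdown libraries, against 5.49 and 5.15 FPKM in the controls (limma-voom log2 fold change 0.66 ± 0.14, adjusted p = 0.0275). Limma-trend called neither (adjusted p = 0.151 and 0.107).

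Assembly factors and rRNA-modifying enzymes of the mitochondrial ribosome had 21 of 25 members lower, with a median of -0.25 and 0 called by either test. At an unadjusted p under 0.05, 7 were lower by limma-trend, where the background, here and for the lists below, was 14.9% of all genes tested. NOA1, a GTPase of small subunit assembly, averaged 27.7 ± 3.71 FPKM in the knockdown libraries and 29.6 ± 1.85 FPKM in the controls, and DHX30, an RNA helicase, averaged 23.3 ± 2.31 FPKM and 26.5 ± 0.32 FPKM in the same order. Of 4 genes for messenger RNA stability, translational activation and membrane insertion 3 had lower values (median -0.28), 0 were called by either test, and 1 was lower at an unadjusted limma-trend p under 0.05. OXA1L, the insertase that receives the nascent chains, averaged 25.9 ± 2.8 FPKM in the knockdown libraries and 29.4 ± 1.6 FPKM in the controls, and TACO1, a translational activator of a complex IV subunit, averaged 14.9 ± 3.29 FPKM and 19.5 ± 1.43 FPKM in the same order. Of 4 mitochondrial transcription genes 3 had lower values (median -0.05), 0 were called by either test, and 1 was lower at an unadjusted limma-trend p under 0.05. POLRMT, the RNA polymerase, averaged 23.5 ± 4.79 FPKM in the knockdown libraries and 31.1 ± 1.27 FPKM in the controls, and TFB2M, a factor that starts transcription with it, averaged 8.91 ± 0.81 FPKM and 8.97 ± 0.65 FPKM in the same order.

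The RNA components of the mitochondrial ribosome are made in the organelle and gave no lower average. MT-RNR2, the large subunit ribosomal RNA, stood at 6419 and 7077 FPKM in knockdown libraries 1 and 2, against 6126 and 5535 FPKM in controls 1 and 2. MT-RNR1, the small subunit ribosomal RNA, stood at 1376 and 1687 FPKM in the knockdown libraries, against 1608 and 1419 FPKM in the controls. Neither was called (limma-voom adjusted p = 0.513 and 0.974), and MT-RNR1 overlapped between the groups. How RNA was selected for the libraries is not stated beyond the name of the kit. Mitochondrially encoded genes as a whole had a median log2 fold change of 0.17 over 33 genes, with 6 of them lower. This group takes in genes of every RNA type, and their median merged exon length was 73 bases. Messenger RNAs were not separated from the short RNAs in it.

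The gene groups nearest in function had similar or lower medians. Cytosolic ribosomal proteins had a median of -0.42 over 76 genes, of which 75 had lower values. Limma-voom called 3 of them lower (3.95%), against 5.8% of all genes tested. Nuclear subunits of the respiratory complexes had a median of -0.43 over 77 genes, of which 73 had lower values. Of these 77 genes 28 were called lower, against 14 of the 77 mitochondrial ribosomal proteins. In each of these groups knockdown library 1 was again farther from the controls than knockdown library 2, at -0.62 and -0.23 for cytosolic ribosomal proteins. With quantile normalized values the medians were -0.17 for mitochondrial ribosomal proteins, -0.02 for cytosolic ribosomal proteins and -0.21 for nuclear respiratory subunits. They were -0.17, -0.30 and -0.32 in that order of groups with length and GC content corrected, and -0.17, -0.28 and -0.30 when library totals were sums of reads. No difference between these groups was tested.

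**Figure D4:**
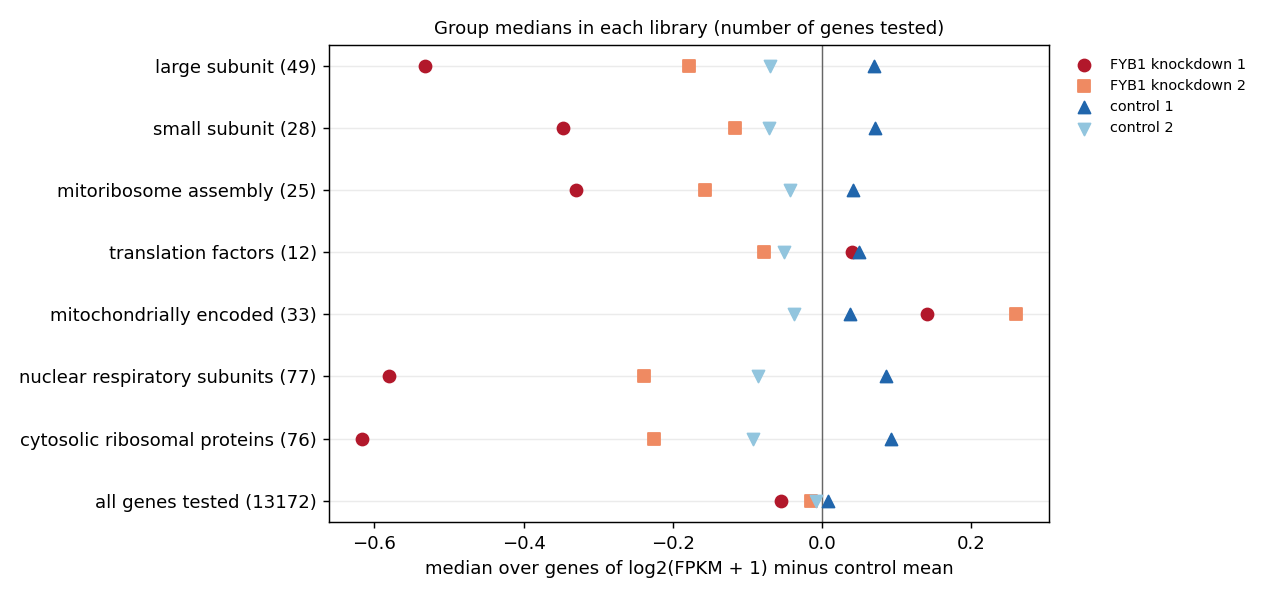
Median over the genes of a group of log2(FPKM + 1) minus the control mean, in each library, with the number of genes tested beside each group. Knockdown library 1 lies at -0.53 for the large and -0.35 for the small subunit and knockdown library 2 at -0.18 and -0.12. Mitochondrially encoded genes, those of short RNAs included, lie above 0 in both knockdown libraries.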

How the data were processed

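HISAT2 2.0.5 and hg38 are named as aligner and build in the submitters' processing notes, and no source used here states the counting program, the annotation or the use of strand. The table names no unit for its values, 1 for each gene in each library. They were identified as the authors' FPKM because a value times the merged exon length in GENCODE 29 is a whole number of equal steps in 100% of genes, within 0.001 read for low counts and in proportion above. Dividing by the step gave reads. The authors' totals were 18436617 and 20480491 in knockdown libraries 1 and 2 and 16648943 and 16789004 in controls 1 and 2.

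Limma-trend (limma 3.58.1, R 4.3.3) on log2(FPKM + 1), pseudocount 1, was the main test, over the 13172 genes whose mean reached 1 FPKM, with the group as the single term. Fold changes on that scale understate the change of low genes. Limma-voom was run on recovered reads, library sizes being the authors' totals. P-values were adjusted over all genes tested. Both were tested on simulated data. The length and GC correction used a loess surface per library with a span of 0.3. Alternatives covered the pseudocount, filter, library total, quantile normalization, that correction, each library left out, a replicate block and the subunit assignment.

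Members and lists were chosen with earlier results of these data known. Named members are those called by either test, the 8 lowest and 6 highest fold changes with a mean of at least 5 FPKM, the 3 highest means and the 3 smallest changes per subunit, and any under the filter. From each other list of mitochondrial translation the called genes are named, or else the 2 with the highest mean. Other members and neighbours were named after their values were seen, as were the motif words, the overlap limit of 20% and the distance between divergent starts chosen.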

Additional observations from a re-analysis of the deposited data

How the results depend on the processing

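The limma-trend count of 0 members stayed at 0 with pseudocounts of 0.1 and 5, with every gene above 0 tested and under quantile normalization. It was 2 with a mean of at least 5 FPKM, 1 when library totals were sums of recovered reads, 2 once length and GC content were corrected for and 14 when limma-voom replaced it, and it ranged from 0 to 2 without any 1 library. With a replicate block it was 7 by limma-trend, among 781 of all 13172 genes, and 14 by limma-voom, among 1072. That limma-voom set held 13 of the 14 members called without a block, with MRPL28 gained and MRPS27 lost. The numbers in the titles are not stated to pair libraries, and deviations of same-numbered libraries correlated at -0.207, so a crossed replicate block was added after the data were seen, which called 26 members by limma-trend, among 1910 genes (14.5%), and 46 by limma-voom, among 4007 (30.4%). The limma-voom count of 14 was 2 with summed reads as totals and ranged from 2 to 47 without any 1 library.

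The medians of all members, of the large and of the small subunit were below 0 under every alternative run. Without any 1 library they ranged from -0.44 to -0.16 for all members, from -0.53 to -0.18 for the large subunit and from -0.35 to -0.12 for the small subunit. The large minus small difference of -0.15 was -0.068 for quantile normalized values and -0.077 with length and GC content corrected, and ranged from -0.18 to -0.062 without any 1 library. For these changes the cause was not tested.

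Members with small changes turned sign under some alternatives, none of them called. With summed reads as totals MRPL48 was 0.11, MRPL30 0.083, MRPS16 0.11 and MRPS30 0.087. With length and GC content corrected MRPL50 was -0.041, MRPL48 0.029 and MRPS16 0.12, and quantile normalization gave 0.21 for MRPS16. Without any 1 library the ranges were -0.0085 to 0.20 for MRPL19, -0.072 to 0.15 for MRPL50, -0.015 to 0.065 for MRPS31, -0.089 to 0.12 for MRPL16, -0.14 to 0.13 for MRPL48, -0.19 to 0.11 for MRPL30, -0.16 to 0.10 for MRPS16 and -0.088 to 0.019 for MRPS30.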

Other observations

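Some genes of mitochondrial ribosomal proteins start next to another gene on the opposite strand. The share of all coding genes with such a neighbour was not counted. Within 1000 bases, allowing the gene bodies to overlap at the start by up to 200 bases, 19 members had a coding neighbour of this kind, in 20 pairs, of which MRPL46 and MRPS11 form each other's. In the 15 pairs with both genes tested, that one counted from either side, the median log2 fold change was -0.39 for the members and -0.13 for their neighbours, of which 11 were lower. Members and neighbours had the same sign in 13 of 15 pairs, and their fold changes had a Spearman correlation of 0.439, given as a description across genes that share libraries. MRPL46 and MRPS11 thus stand among the neighbours as well, and the pairs include MRPL43 and TWNK, whose exons overlap. Most members and most neighbours were lower, as were 57.1% of coding genes tested, so equal signs are common in any case. A link between neighbours was not tested. Limma-voom called 1 of the 15 neighbours, where the background was 7.74% of all genes called in either direction. That neighbour was NDUFS6, a subunit of respiratory complex I beside MRPL36, with the lowest fold change of the 15. It stood at 27.0 and 43.1 FPKM in knockdown libraries 1 and 2, against 68.4 and 57.7 FPKM in controls 1 and 2 (limma-voom adjusted p = 0.0275). TCP1, a chaperonin subunit beside MRPL18, stood at 67.5 and 73.1 FPKM in the knockdown libraries, against 69.7 and 63.6 FPKM in the controls, while MRPL18 stood at 37.0 and 42.3 FPKM, against 56.5 and 49.2 FPKM. Neither TCP1 nor MRPL18 was called (limma-voom adjusted p = 0.725 and 0.0734).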
